A study of Mus musculus with 14 samples.

Results

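Expression of 4 matrix metalloproteinase genes (Mmp2, Mmp9, Mmp14 and Mmp15) and of all 4 tissue inhibitors of metalloproteinases (Timp1, Timp2, Timp3 and Timp4) was measured in mouse hind limb skeletal muscle. These 8 genes were taken by symbol from the 49585 genes of the deposited expression tables, and each was found in both tables. RNA-seq libraries were made from wild-type (WT) mice and from mice with a knockout (KO) of Myf6, a transcription factor of the myogenic family also called MRF4. Muscle was either without injury or injured, which gave 4 groups of 3 libraries: WT uninjured, KO uninjured, WT injured and KO injured. The kind of injury, the time after it, the ages of the mice, the strain and the allele are not given in the labels. The WT and KO libraries carry different animal numbers, so a difference in litter or batch and one of genotype cannot be told apart. Within a genotype, the uninjured and injured libraries carry the same 3 numbers with the letters L and R, and were read as paired limbs of 3 animals, which no label states. No label says that the animals were of separate litters, and p-values measure the spread between these libraries only. A peak list from 1 ChIP-seq library of Flag-tagged Myf6 in primary myotubes, with 1 control, was used for the binding data.

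Matrix metalloproteinases are zinc-dependent enzymes that cut the proteins of the extracellular matrix, and are made as inactive precursors. Mmp2 and Mmp9 encode the gelatinases, which cut denatured collagen and the collagen of basement membranes. Mmp14 and Mmp15 encode proteases anchored in the plasma membrane, and the Mmp14 protein activates the precursor of Mmp2 at the cell surface in a complex that includes Timp2. Timp proteins bind and block the active enzymes. In skeletal muscle a basement membrane encloses each fibre together with its satellite cells, the stem cells of the tissue, and its turnover accompanies repair.

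The targeted gene followed the genotype labels. Myf6 was at 24.999 to 111 RPM (reads per 1000000 reads assigned to genes) in the uninjured WT libraries and at 1.86 to 3.46 RPM in the uninjured KO libraries. It was at 47.9 to 121 RPM in injured WT and at 2.88 to 3.32 RPM in injured KO. The log2 changes of -3.90 and -4.22 passed the test in limma (Benjamini-Hochberg adjusted p = 0.0215 and 0.00697). Library depth ranged from 1880087 reads in uninjured WT replicate 2 to 49392472, and 3 reads, taken as the floor of detection, were worth 0.0607 to 1.60 RPM. Genes that mark muscle fibres, such as Acta1 and Ckm, were summed over a list of 9. The sums were 112626 to 123757 RPM in uninjured WT and 164671 to 176778 RPM in uninjured KO, without overlap. Of the 9 genes, 3 lay wholly higher there in KO (Ckm, Tnnt3 and Actn3). Acta1 overlapped, and the mean of Mb was slightly lower in KO (1309 against 1339 RPM). KO lay wholly above WT for 6.2% of all genes tested in uninjured muscle. In injured muscle the sums overlapped, at 115070 to 147598 RPM in WT and 112041 to 160278 RPM in KO. KO replicate 2 stood apart in several members in both limbs. Its uninjured library had 14065 genes with a read, fewer than the 14338 of the smallest library, against 16724 or more in the other 10. The share of reads on mitochondrial genes was 15.3% and 23.2% in its uninjured and injured libraries, 3.63% to 6.76% in the other KO libraries and 8.35% to 22.3% in the WT libraries. The part of these shares and of the fibre markers in the results was not tested.

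Upstream sequence is shown for the 3 members that had a deposited Myf6 peak inside the gene or within 10 kb of it (Mmp15, Timp2 and Timp3). Each window is the 250 bases before the annotated start site in RefSeq, assembly GRCm38.p6, on the strand of the gene. Capitals mark CANNTG, the E-box, the kind of site that myogenic factors bind, which reads the same on both strands.
Mmp15 (chr8:95352046-95352295, + strand): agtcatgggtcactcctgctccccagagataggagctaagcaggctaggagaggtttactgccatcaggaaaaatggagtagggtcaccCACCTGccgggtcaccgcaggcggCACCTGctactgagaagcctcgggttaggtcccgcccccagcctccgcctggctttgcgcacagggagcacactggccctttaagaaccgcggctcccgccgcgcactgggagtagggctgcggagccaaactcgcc
Timp2 (chr11:118355412-118355661, - strand): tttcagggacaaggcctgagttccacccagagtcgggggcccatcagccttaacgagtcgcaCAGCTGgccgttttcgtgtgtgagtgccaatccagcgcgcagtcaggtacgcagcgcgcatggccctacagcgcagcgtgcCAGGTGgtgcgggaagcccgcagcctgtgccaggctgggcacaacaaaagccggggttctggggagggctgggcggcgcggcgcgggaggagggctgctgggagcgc
Timp3 (chr10:86300162-86300411, + strand): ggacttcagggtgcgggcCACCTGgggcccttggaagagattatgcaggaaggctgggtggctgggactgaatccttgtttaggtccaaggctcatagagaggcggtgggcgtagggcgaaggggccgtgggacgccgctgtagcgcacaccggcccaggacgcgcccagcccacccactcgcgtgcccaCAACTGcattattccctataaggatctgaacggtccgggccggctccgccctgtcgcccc
Each window held 2 matches, while those of Mmp14 and Timp4 held 1 each and that of Timp1 held none. Both in Mmp15 were CACCTG, and 1 each in the windows of Timp2 and Timp3 was that site or its reading on the opposite strand. A CANNTG match was common, found in 66.2% of 32851 promoter windows of this length, and CACCTG on either strand in 17.2%. No deposited peak overlapped any of these windows, and the peaks are described after the expression data. Windows of 6 of the 8 members were in the table, Mmp2 and Mmp9 being those without an entry.

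None of the 8 genes passed the test in any of 5 comparisons: KO against WT in uninjured muscle, KO against WT in injured muscle, injured against uninjured in each genotype, and the genotype by injury interaction. The test was limma on log2(RPM + 1), with p-values adjusted over all genes by Benjamini-Hochberg and a threshold of 0.05. All 8 passed the filter on low values, which asked for 1 RPM or more in 3 or more libraries. Few genes of any kind passed: 0.281% of 12460 genes in uninjured muscle, 0.269% of 12625 in injured muscle, and 0 of 13337 in the other three. The first 2 counts, 35 and 34 genes, depended on the processing. DESeq2 gave 663 and 427 genes, the q-values of the authors' deposited table gave 331 and 225, and leaving out a library gave 3 to 84 and 0 to 2343, the 2343 being without injured KO replicate 2. The member that stood out most evenly was Mmp15, higher in every KO library than in every WT library of the same injury state. Mmp14 in uninjured muscle and Mmp9 in injured muscle lay lower in every KO library than in every WT library. Over all genes tested, KO lay wholly below WT for 15.5% in uninjured and 8.63% in injured muscle. KO lay wholly above WT for 6.2% and 8.29%, and in both states for 2.13%.

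**Figure D1:**
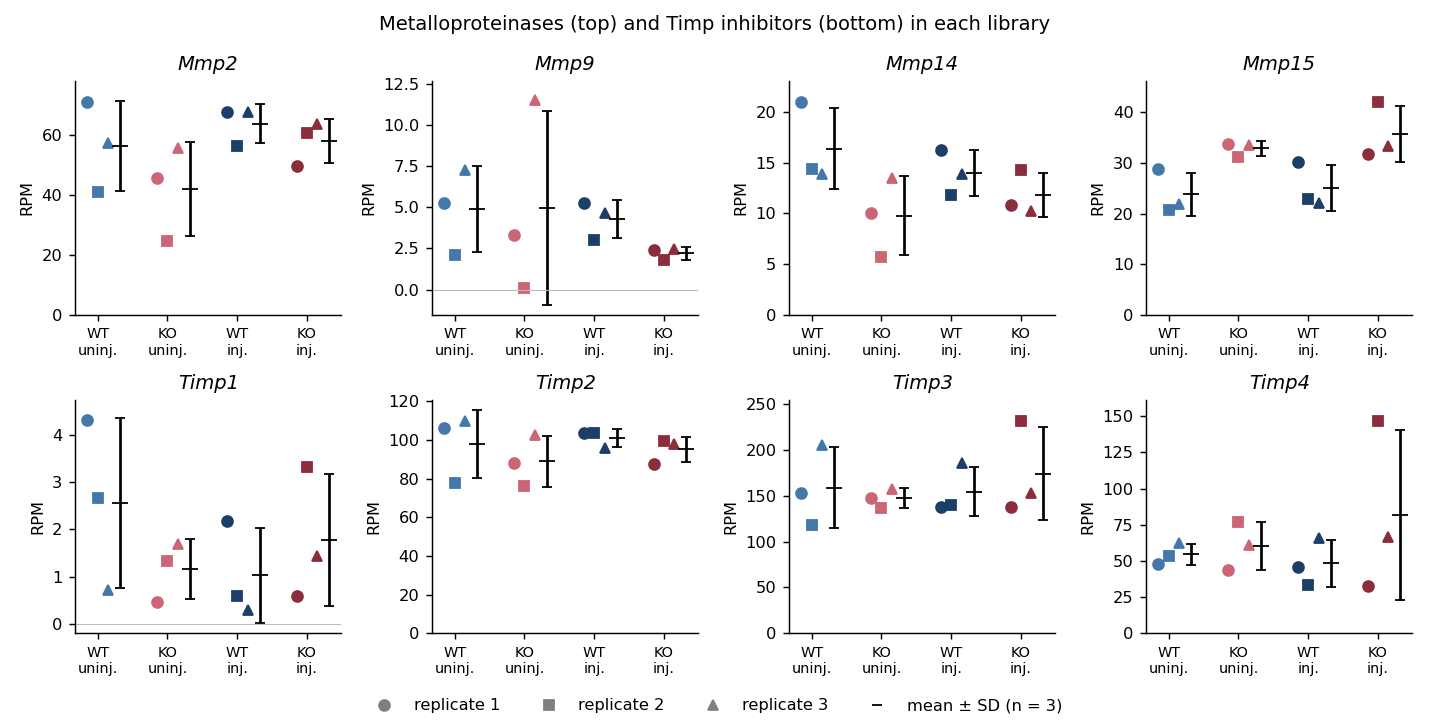
RPM of the 4 metalloproteinase genes (top row) and the 4 Timp genes (bottom row) in each of the 12 libraries, by group, with the mean and SD of 3 libraries beside the points. Mmp15 lies at 31.2 to 42.0 RPM in the KO libraries and at 20.7 to 30.2 RPM in the WT libraries, and Timp4 has a lone high point of 147 RPM in injured KO replicate 2.

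Of the gelatinases, Mmp2 was the steadier. In uninjured WT muscle it was at 71.1, 41.0 and 57.6 RPM in replicates 1 to 3, a mean of 56.5 ± 15.1 RPM (SD, n = 3), and in uninjured KO muscle at 45.7, 24.8 and 55.7 RPM (42.1 ± 15.8). The lowest value, 24.8 RPM, was that of KO replicate 2, and the groups overlapped. On the log2 scale KO minus WT was -0.46 (SE 0.36, limma adjusted p = 0.612), with a 95% interval of -1.28 to 0.36, and was -0.13 without KO replicate 2. In injured muscle Mmp2 was at 67.7, 56.4 and 67.8 RPM in the WT libraries (64.0 ± 6.56) and stood at 49.8, 60.8 and 63.7 RPM in the KO libraries (58.1 ± 7.29). These groups overlapped too, and the log2 difference was -0.14 (SE 0.18, 95% interval -0.55 to 0.28, limma adjusted p = 0.827).

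Mmp9, the gelatinase known from neutrophils, macrophages and osteoclasts, was low and uneven. It was at 5.28, 2.13 and 7.28 RPM in uninjured WT and at 3.35, 0.0787 and 11.5 RPM in uninjured KO. The lowest and the highest of all 12 libraries were thus both uninjured KO libraries. The lowest, replicate 2, rested on 1 read, under its floor of 0.236 RPM. The value of uninjured WT replicate 2 rested on 4 reads. The log2 change of -0.49 had an SE of 0.80 (limma adjusted p = 0.829). Without KO replicate 2 it was 0.44, and without KO replicate 3 it was -1.33, so no direction can be given for uninjured muscle. In injured muscle Mmp9 was at 5.25, 2.995 and 4.67 RPM in the WT libraries (4.31 ± 1.17, n = 3) and stood at 2.38, 1.77 and 2.47 RPM in the KO libraries (2.21 ± 0.381). Every injured KO library lay below every injured WT library. The log2 change was -0.71 (SE 0.24, 95% interval -1.27 to -0.14), with an unadjusted p of 0.0214 in limma and an adjusted p of 0.403. KO libraries lay wholly below WT for 8.63% of all genes tested in injured muscle, and 10.3% had an unadjusted p under 0.05. The authors' deposited table gives -0.91 (SE 0.37) for the same change, with a q-value of 0.703.

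Uninjured KO replicate 3, where Mmp9 was at 11.5 RPM, also held some transcripts known from bone. Of those, Ibsp, a bone matrix protein, was at 11.9 RPM there and at 1.82 RPM or less in the other 11 libraries, Mmp13, the collagenase, at 13.3 RPM against 1.78 RPM or less, and Ctsk, the cathepsin of osteoclasts, at 27.8 RPM against 10.7 RPM or less. A list of 10 bone genes, written after the Mmp9 values were seen, summed to 71.2 RPM in that library and to 8.16 to 37.8 RPM in the others. Only 4 of the 10 were highest there (Ibsp, Sp7, Dmp1 and Ctsk). Acp5, an acid phosphatase of osteoclasts, was at 27.3 RPM there and at 28.8 RPM in injured KO replicate 1, and Sost, the osteocyte gene, was at 0. The list's part in the Mmp9 value was not tested. Neutrophil markers were near 0: the 10 genes, among them S100a8, Ly6g and Mpo, summed to 0.532 to 6.46 RPM per library, with up to 9 of the 10 at 0 reads.

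Among the membrane-type proteases, Mmp15 was at 28.7, 20.7 and 21.9 RPM in uninjured WT (23.8 ± 4.31, n = 3) and at 33.7, 31.2 and 33.6 RPM in uninjured KO (32.9 ± 1.40). In injured muscle it was at 30.2, 22.8 and 22.0 RPM in the WT libraries (25.03 ± 4.53) and stood at 31.7, 42.0 and 33.3 RPM in the KO libraries (35.7 ± 5.54). All 6 KO libraries lay above all 6 WT libraries, the closest pair being 31.2 RPM in uninjured KO and 30.2 RPM in injured WT. The means thus ran in the order WT uninjured, WT injured, KO uninjured and KO injured, and the 2 states of a genotype overlapped. The log2 change was 0.46 in uninjured muscle (SE 0.27, 95% interval -0.15 to 1.076, limma adjusted p = 0.484), or 1.38-fold. It was 0.50 in injured muscle (SE 0.20, 0.02 to 0.97, limma adjusted p = 0.465), or 1.41-fold, with an unadjusted p of 0.0423. The median gene tested stood at -0.18 in the first comparison and at 0.01 in the second. KO lay wholly above WT for 6.2% of genes in uninjured and 8.29% in injured muscle, and in both states for 2.13% of the 12214 genes tested in each. KO below WT in both states held for 3.16% of those genes and for none of the 8. The comparisons are not independent, since their libraries were read as limbs of the same animals. The exact permutation test of each gave p = 0.1, the smallest that 3 libraries against 3 allow. In the authors' deposited table Mmp15 is at 0.69 (SE 0.33) in uninjured and 0.53 (SE 0.25) in injured muscle, with q-values of 0.837 and 0.994.

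Mmp14 was at 21.0, 14.4 and 13.9 RPM in uninjured WT (16.4 ± 3.95, n = 3) and at 10.0, 5.75 and 13.5 RPM in uninjured KO (9.77 ± 3.89). The KO libraries all lay below the WT libraries, though the highest KO value, 13.5 RPM, was close to the lowest WT value, 13.9 RPM. The WT value of 14.4 RPM, from the smallest library, rested on 27 reads. The log2 change was -0.74 (SE 0.38, 95% interval -1.59 to 0.11, unadjusted p = 0.0821 and adjusted p = 0.414 in limma). KO lay wholly below WT for 15.5% of all genes tested there, and the median gene was itself at -0.18. Without KO replicate 2, which had the lowest value, the change was -0.44. In injured muscle Mmp14 was at 16.3, 11.8 and 13.9 RPM in the WT libraries (14.0 ± 2.24) and stood at 10.9, 14.3 and 10.2 RPM in the KO libraries (11.8 ± 2.17). These groups overlapped, and the log2 difference was -0.23 (SE 0.21, limma adjusted p = 0.742).

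In whole muscle, fewer cells of a type and less RNA per cell cannot be told apart, and markers of stromal and immune cells varied beside Mmp14 and Mmp2. The 9 macrophage markers, among them Adgre1, Csf1r and C1qa, summed to 247, 129 and 211 RPM in uninjured WT and to 114, 73.4 and 118 RPM in uninjured KO. In injured muscle they summed to 210, 153 and 215 RPM in the WT libraries, and to 128, 140 and 132 RPM in KO. The sums did not overlap between the genotypes in either state, but none of the 9 genes passed the test. As single genes, 7 of the 9 lay wholly below WT in uninjured KO and 3 in injured KO. That held for 15.5% and 8.63% of all genes tested. The 10 fibroblast markers, among them Pdgfra, Dcn and Col1a1, summed to 1566 to 3230 RPM in uninjured WT, 1263 to 2216 in uninjured KO, 2491 to 2672 in injured WT and 2117 to 2558 in injured KO. Over the 12 libraries the log2 level of Mmp2 followed the fibroblast sum with a Pearson r of 0.92, that of Timp2 with 0.92 and that of Mmp14 with 0.78, while that of Mmp15 gave -0.08. The r with the macrophage sum was 0.85 for Mmp14, 0.84 for Mmp2, 0.73 for Timp2 and -0.39 for Mmp15. With the satellite cell sum it was 0.75, 0.81, 0.67 and -0.46 in the same order. Mmp9 gave 0.69, 0.64 and 0.72 with the fibroblast, macrophage and satellite cell sums. With the muscle fibre sum r was -0.76 for Mmp14, -0.55 for Mmp2, -0.43 for Timp2 and 0.37 for Mmp15. For Mmp15 the highest r of the 10 marker sums were 0.74 with tenocytes, 0.58 with pericytes and 0.54 with endothelium, whose sums overlapped between the genotypes in both states. Of the fibroblast markers, Gsn had the highest mean in uninjured WT, 1276 RPM, and weighs most in their sum there. Dcn, Lum, Col1a1 and Col3a1 also stand in the list of matrix proteins. No gene of the 10 marker lists was called between genotypes. These values describe 12 libraries that share animals and scaling, and the part of these cells in the levels was not tested.

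**Figure D2:**
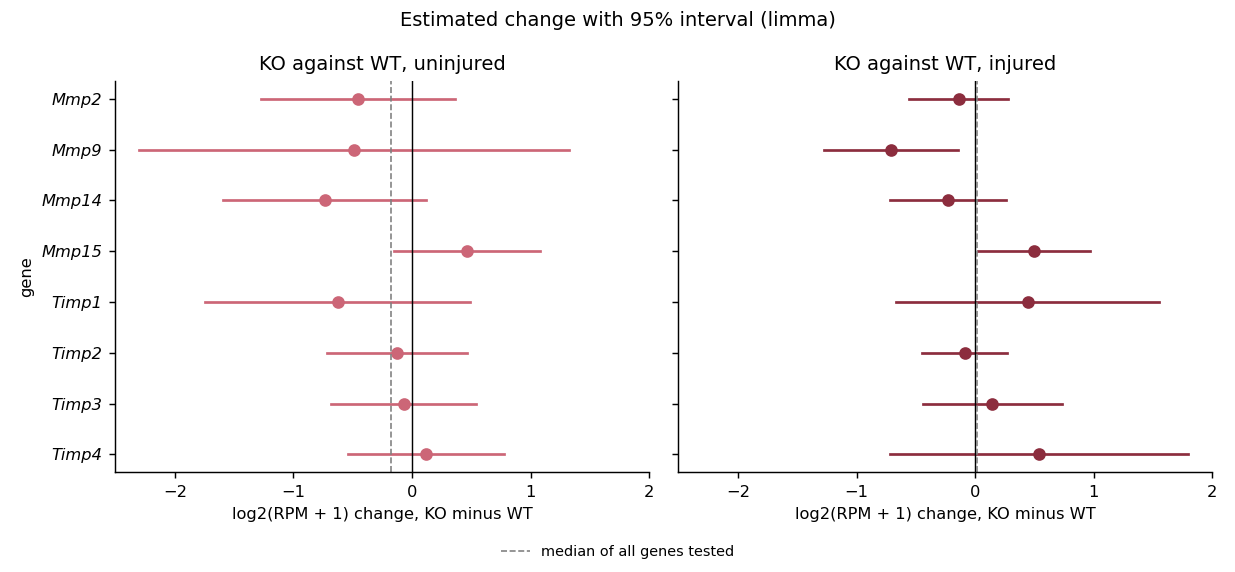
Estimated log2(RPM + 1) change, KO minus WT, of each of the 8 genes in uninjured (left) and injured muscle (right), with its 95% interval from limma; the dashed line is the median of all genes tested. The intervals of Mmp9 (-1.27 to -0.14) and Mmp15 (0.02 to 0.97) in injured muscle lie on 1 side of 0 before adjustment, and the other 14 hold 0.

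Of the inhibitors, Timp2, the partner of Mmp14 in the activation of Mmp2, varied least of the 8 genes, from 76.4 to 110 RPM over all 12 libraries. It was at 106, 77.7 and 110 RPM in uninjured WT and at 87.9, 76.4 and 103 RPM in uninjured KO. In injured muscle the values were 104, 104 and 95.6 RPM in WT and 87.7, 99.4 and 98.1 RPM in KO. The genotypes overlapped in both states. The log2 changes were -0.13 (95% interval -0.72 to 0.46, limma adjusted p = 0.865) and -0.09 (-0.45 to 0.27, adjusted p = 0.880). With TMM scaling, which moved the median of all genes from -0.18 to -0.02 in uninjured muscle, the first turned to 0.06.

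Timp3, which binds to the matrix and also inhibits ADAM proteases, was at 153, 118 and 205 RPM in uninjured WT and at 148, 137 and 158 RPM in uninjured KO. It was at 138, 140 and 186 RPM in injured WT and at 138, 232 and 153 RPM in injured KO, where replicate 2 was the highest of all. The groups overlapped, and the log2 changes of -0.07 (SE 0.27, limma adjusted p = 0.938) and 0.15 (SE 0.25, adjusted p = 0.879) did not pass the test. The first was 0.12 with TMM scaling, and the second was -0.08 without injured KO replicate 2.

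Timp4, the inhibitor known from heart and striated muscle, was at 47.9, 53.2 and 62.6 RPM in uninjured WT (54.5 ± 7.44, n = 3) and at 43.6, 76.6 and 61.1 RPM in uninjured KO (60.4 ± 16.5). In injured muscle it was at 46.0, 33.5 and 65.8 RPM in the WT libraries (48.4 ± 16.3) and stood at 32.6, 147 and 66.3 RPM in the KO libraries (81.9 ± 58.7). The lowest and the highest of the 12 libraries were both injured KO libraries. The log2 changes were 0.12 (SE 0.29, limma adjusted p = 0.893) and 0.54 (SE 0.53, adjusted p = 0.764), the first being -0.07 without uninjured KO replicate 2 and the second -0.0036 without injured KO replicate 2. The sum of 9 endothelial markers was also highest in that library, at 946 RPM against 266 to 502 RPM in the others. Cldn5, 1 of the 9, was highest in an uninjured KO library. The sums of pericyte markers (733 RPM) and of red blood cell markers (583 RPM) peaked in injured KO replicate 2 too. Of the 6 pericyte markers, however, Rgs5, Acta2, Myh11 and Tagln were highest in libraries of other groups. So were Hbb-bt and Alas2 of the 5 red blood cell markers. Over the 12 libraries the r of Timp4 was 0.75 with the endothelial and 0.73 with the pericyte sum. The part of these cells in the Timp4 value was not tested.

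Timp1, an inhibitor known to be induced in injured and inflamed tissue, was at 4.31, 2.66 and 0.725 RPM in uninjured WT and at 0.456, 1.34 and 1.68 RPM in uninjured KO. It was at 2.18, 0.599 and 0.306 RPM in injured WT and at 0.589, 3.32 and 1.44 RPM in injured KO. The groups overlapped in every comparison. The fewest reads behind a value were 5, in the smallest library. The log2 changes were -0.63 (SE 0.50, limma adjusted p = 0.613) in uninjured and 0.44 (SE 0.47, adjusted p = 0.784) in injured muscle. The first ranged from -1.08 to -0.27 with a library left out, the ends being without uninjured WT replicates 3 and 1. The second rested on KO replicate 2. Without that library Timp1 no longer passed the filter, and the difference of the mean log2 values, with no test, was 0.07. edgeR gave -0.95 and 0.83.

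Ratios within a library remove its scaling, and the ratio of the membrane-type proteases was set beside those of the gelatinase and its partners. Mmp15 over Mmp14 was 1.37, 1.44 and 1.58 in uninjured WT and 3.36, 5.44 and 2.49 in uninjured KO. It was 1.86, 1.93 and 1.59 in injured WT and 2.92, 2.94 and 3.25 in injured KO. All KO libraries lay above all WT libraries. In uninjured muscle this follows from the levels of Mmp15 and Mmp14 given above, and adds nothing to them. This ratio was singled out after its values were seen and has no test, and RPM does not take transcript length into account, so its size does not compare the levels of the genes. Mmp2 over Timp2 was 0.524 to 0.670 in uninjured WT, 0.325 to 0.543 in uninjured KO, 0.543 to 0.709 in injured WT and 0.568 to 0.649 in injured KO. The genotypes overlapped in that ratio, as they did in Mmp14 over Mmp2.

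**Figure D3:**
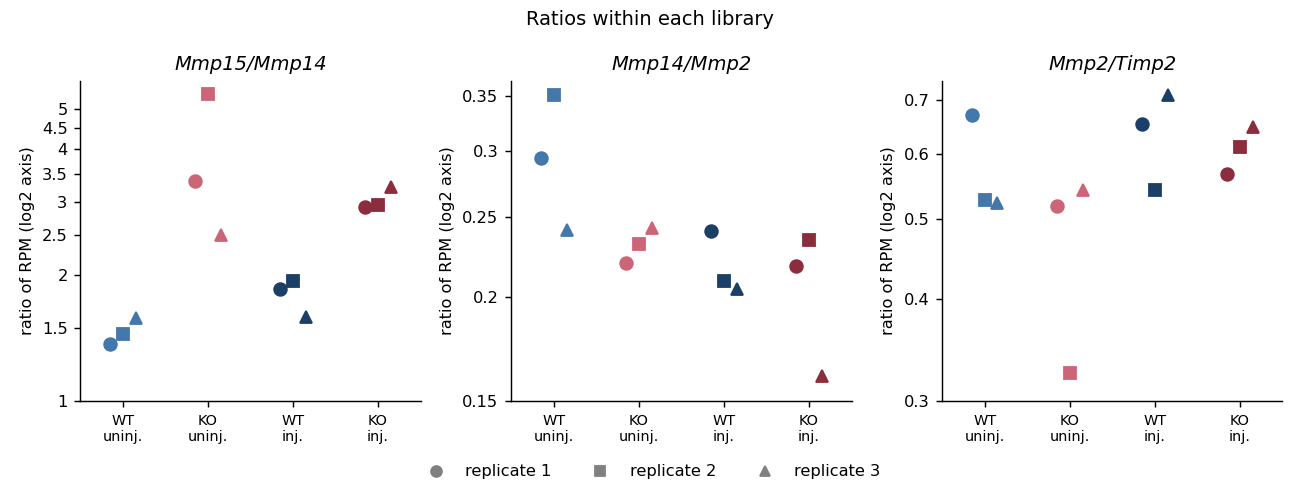
Ratio of RPM within each library, on log2 axes, for Mmp15 over Mmp14, Mmp14 over Mmp2 and Mmp2 over Timp2, by group. Mmp15 over Mmp14 is 1.37 to 1.93 in the WT libraries and 2.49 to 5.44 in the KO libraries, while the other ratios overlap between genotypes.

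Injury gave no call among the 8 genes in either genotype, nor among the 13337 genes tested (limma, 172 genes in WT and 468 in KO at an unadjusted p under 0.05, and 0 calls by edgeR or DESeq2). None of the 8 had an unadjusted p under 0.05 in WT, in KO or in the interaction, against 1.29%, 3.51% and 1.56% of all genes. None was wholly higher or lower in the injured limbs of WT, against 7.48% and 2.54% of all genes, or in those of KO, against 6.12% and 0.622%. In WT the largest change was that of Timp1, at -0.78 on the log2 scale (SE 0.50, 95% interval -1.85 to 0.29, limma adjusted p = 1), which had the same sign in all 3 animals, at -0.74, -1.19 and -0.40. The other 7 lay between -0.21 and 0.20. In KO, Mmp2 was at 0.52 (SE 0.30, 95% interval -0.12 to 1.17, limma adjusted p = 0.728), and at 0.24 with TMM scaling. Mmp9 was at -0.28 there, and at -0.37 with TMM scaling, -1.26 with edgeR and -1.24 with DESeq2. In KO 7 of the 8 estimates were above 0, but those of Mmp15, Timp2, Timp3 and Timp4 turned to -0.18, -0.19, -0.09 and -0.08 with TMM scaling. The median of all genes in that comparison was 0.29, against 0.21 for the 8, and TMM scaling moved it to 0.05.

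The KO animal of replicate 2 stood apart from the others in its injury change. In that animal the injured limb was above the uninjured limb by 1.26 for Mmp2, 1.36 for Mmp9, 1.18 for Mmp14, 0.41 for Mmp15, 0.89 for Timp1, 0.38 for Timp2, 0.75 for Timp3 and 0.93 for Timp4, on the log2 scale. In the other KO animals Mmp2 was at 0.12 and 0.19, Mmp14 at 0.10 and -0.37, Timp3 at -0.10 and -0.05, and Timp4 at -0.41 and 0.12. Mmp9 was at -0.36 and -1.85, the second being replicate 3 with the high uninjured value. Without the uninjured library of KO replicate 2 the injury change of Mmp2 in KO was 0.19 and that of Mmp14 0.0022. Without its injured library that of Timp4 was -0.33. The shift was not limited to the 8 genes. In that comparison the median of all genes was 0.29, and it was 0.099 without that uninjured library and 0.27 without that injured library. Mmp15 was nearly level in the WT animals (0.07, 0.13 and 0.0066) and in the other KO animals (-0.09 and -0.01). The interaction, the injury change in KO minus that in WT, passed for none of the 8 (limma adjusted p = 0.9999 for each) and was largest for Timp1, at 1.07 (SE 0.70, 95% interval -0.45 to 2.59, and 0.69 without injured KO replicate 2).

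**Figure D4:**
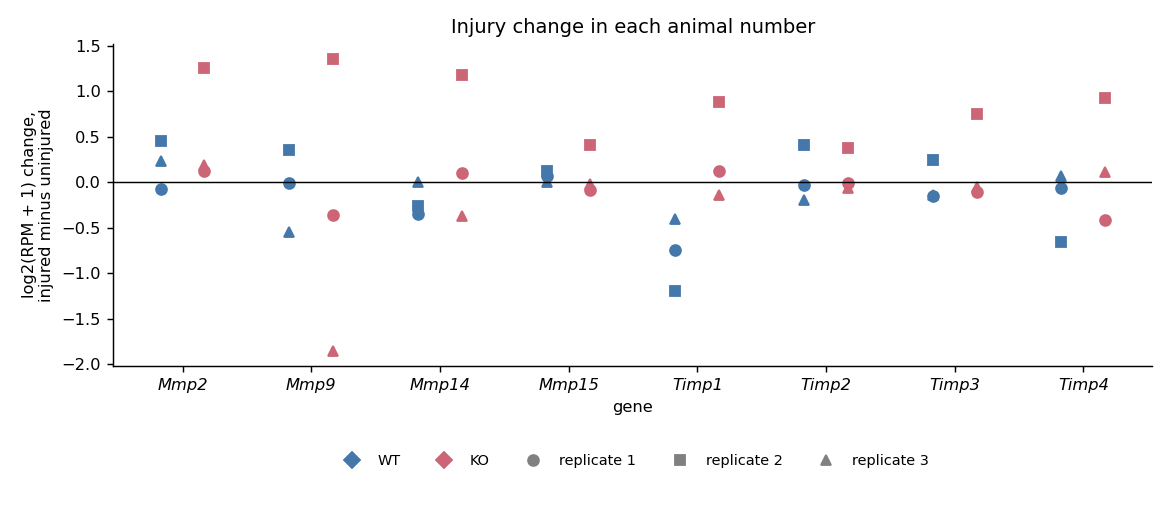
Change of log2(RPM + 1), injured minus uninjured, between the libraries with the same animal number, for each of the 8 genes in WT (blue) and KO (red). KO replicate 2 (square) lies above 0 for all 8 genes, up to 1.36 for Mmp9, while Mmp15 lies between -0.09 and 0.13 in the other 5 animals.

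Of 19 other matrix metalloproteinase genes, 6 passed the filter in each comparison and none was called. Mmp17, which encodes a protease tied to the membrane by a lipid anchor, was at 0.193, 0 and 0 RPM in uninjured WT and at 1.60, 2.83 and 1.17 RPM in uninjured KO. In injured muscle it was at 0.825, 0.487 and 0.115 RPM in the WT libraries, and at 1.39, 1.16 and 1.46 RPM in KO. KO was above WT in both states, but in each the gene passed the filter through the KO libraries alone, so that a tested difference was partly set by the filter. The changes were 1.39 (SE 0.38, limma adjusted p = 0.167) and 0.69 (SE 0.25, adjusted p = 0.417). Mmp28 was at 0.61 in the second comparison (limma adjusted p = 0.445), with 0.562 to 1.28 RPM in WT and 1.53 to 2.27 RPM in KO. Its 3 KO libraries were enough to pass the filter, which partly sets that difference too. Mmp3, or stromelysin, was lower in every uninjured KO library, with a change of -0.79 (SE 0.38, limma adjusted p = 0.382). KO lay wholly below WT for 15.5% of all genes tested there. After injury, Mmp3 and Mmp17 in WT and Mmp19 and Mmp11 in KO had the smallest unadjusted p of the list, from 0.0651 to 0.207 (limma, n = 3 per group). Mmp19 and Mmp3 were at 1.04 and 1.12 in the interaction (limma adjusted p = 0.9999 for both).

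Of 19 related proteases of the ADAM and ADAMTS families, 16 were tested in uninjured and 17 in the other comparisons, with no call. Adam8, a sheddase known from leukocytes, was at 2.93, 1.60 and 2.17 RPM in uninjured WT and at 0.609, 0 and 0.468 RPM in uninjured KO, a change of -1.26 (SE 0.39, limma adjusted p = 0.2013). It passed the filter there through the WT libraries alone, which partly sets that difference. Its injured groups overlapped, at -0.64 (adjusted p = 0.530). Adam17, the enzyme that releases TNF and a target of Timp3, was at 16.5, 13.8 and 19.4 RPM in uninjured WT and at 9.02, 3.46 and 13.5 RPM in uninjured KO. These groups did not overlap, and the change of -1.01 (SE 0.45, limma adjusted p = 0.355) had KO replicate 2 as its lowest library. In uninjured muscle KO lay wholly below WT for 2 of the 16 genes tested here and for 15.5% of all genes. Adam10 was at 1.33 and Adam17 at 0.84 after injury in KO (limma adjusted p = 0.728 for both). Adamts20 was at -0.55 between the injured groups, and Adam19 at 0.61 after injury in WT, neither passing.

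Among 17 genes listed beside these proteases, not all of which act on them, 14 were tested and none was called. Furin, which cuts the precursors of the membrane-type enzymes, was at 14.9 to 18.1 RPM in uninjured WT and 21.9 to 37.5 RPM in uninjured KO, at 0.65 (SE 0.31, limma adjusted p = 0.381). Serpinh1, a collagen chaperone, was at 94.2 to 139 RPM in injured WT and at 72.7 to 74.6 RPM in injured KO, at -0.55 (SE 0.20, limma adjusted p = 0.415). It was at -0.72 in uninjured muscle, where the groups overlapped. Bsg, or basigin, known as an inducer of metalloproteinases, was at 789 to 840 RPM in injured WT and 598 to 670 RPM in injured KO, at -0.35 (limma adjusted p = 0.536). In uninjured muscle KO lay wholly above WT for 2 of the 14 and for 6.2% of all genes tested. In injured muscle it lay wholly below for 4 of the 14 and for 8.63% of all genes tested. Plaur and Lrp1 in WT (0.77 and 0.43), Reck and Plau in KO (0.84 and 0.63) and Sparc and Plaur in the interaction (0.45 and -0.54) did not pass either.

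All 20 genes of matrix proteins that the enzymes cut were tested, with no call. Col6a3, a chain of collagen VI, was at 44.1 to 80.8 RPM in uninjured WT and 12.8 to 52.2 in uninjured KO, with a change of -1.02 (SE 0.49, limma adjusted p = 0.381). Dcn, the proteoglycan decorin, was at 139 to 587 RPM and 70.0 to 251 RPM in the same groups, at -1.21 (SE 0.58, adjusted p = 0.383). In injured muscle Col6a3 was at -0.43, with KO below WT, and Eln, elastin, was at 0.73 with overlapping groups (limma adjusted p = 0.523 and 0.515). KO lay wholly below WT there for 1 of the 20 and for 8.63% of all genes tested. The median over the 20 was -0.11 in uninjured muscle and 0.02 in injured muscle, against -0.18 and 0.01 over all genes tested. After injury Col6a3 and Dcn were at 0.86 and 1.03 in KO, and Col4a2 and Bgn at 0.46 and -0.41 in WT. Lum and Dcn were at 1.11 and 0.89 in the interaction, and none of these passed.

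The genes whose levels ran most like each member were found by the Pearson r of log2(RPM + 1) over the 12 libraries, among 7143 genes with a mean of at least 10 RPM. This is a description of libraries that share animals and depth. The closest to Mmp2 was Col6a3 (r = 0.96), followed by Gopc and Agfg1 (both 0.96). The closest to Mmp14 was Pdcd11 (0.94), and to Mmp15 Adgrg1 (0.94) and Eln (0.94). Timp2 ran closest to Spry1 (0.94), Timp3 to Jam2, an adhesion molecule of endothelial junctions (0.93), and Timp4 to Pdgfrb, the receptor that marks pericytes (0.92). Mmp9 and Timp1 had means under 10 RPM and were left out. Between members, r was 0.84 for Mmp2 with Timp2, 0.80 for Mmp2 with Mmp14 and 0.68 for Timp3 with Timp4, while Mmp15 with Mmp14 gave -0.20.

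Peaks of Flag-tagged Myf6 in primary myotubes, cultured muscle cells rather than tissue, were set beside the genes. Of the 8 genes, 2 had peaks inside, Timp2 with 2 and Timp3 with 3, and Mmp15 had a peak within 10 kb. Among 21631 protein-coding genes 17.5% had a peak inside and 26.1% inside or within 10 kb, and long genes have more room for one. At Timp2, which spans 54.351 kb of chromosome 11, the strongest peak (chr11:118349548-118349899) had a fold enrichment of 16.4 over the local background and its summit 5.742 kb past the start site. The second inside peak (chr11:118322047-118322205) had a fold of 8.15 at 33.289 kb, and a peak upstream (chr11:118365250-118365529) a fold of 10.8 at 9.906 kb before the start site. At Timp3, which spans 49.094 kb of chromosome 10, the peaks had folds of 4.47 at 13.245 kb, 4.51 at 20.985 kb and 9.02 at 21.785 kb (the last being chr10:86322094-86322307). The Mmp15 peak (chr8:95376286-95376506) was weak, with a fold of 3.87, and lay 1.993 kb past the end of the gene. The median fold of all 12898 peaks was 7.68. The nearest peak was 12.35 kb from Timp4, 19.17 kb from Mmp9, 40.882 kb from Timp1, 51.97 kb from Mmp2 and 256.939 kb from Mmp14. Folds are the authors' values for each peak. Whether a peak lies in an exon or an intron was not analysed here. Timp2 and Timp3, with peaks inside, had log2 changes between -0.13 and 0.15 in KO against WT, and Mmp15, with a weak peak past its end, had 0.46 and 0.50.

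**Figure D5:**
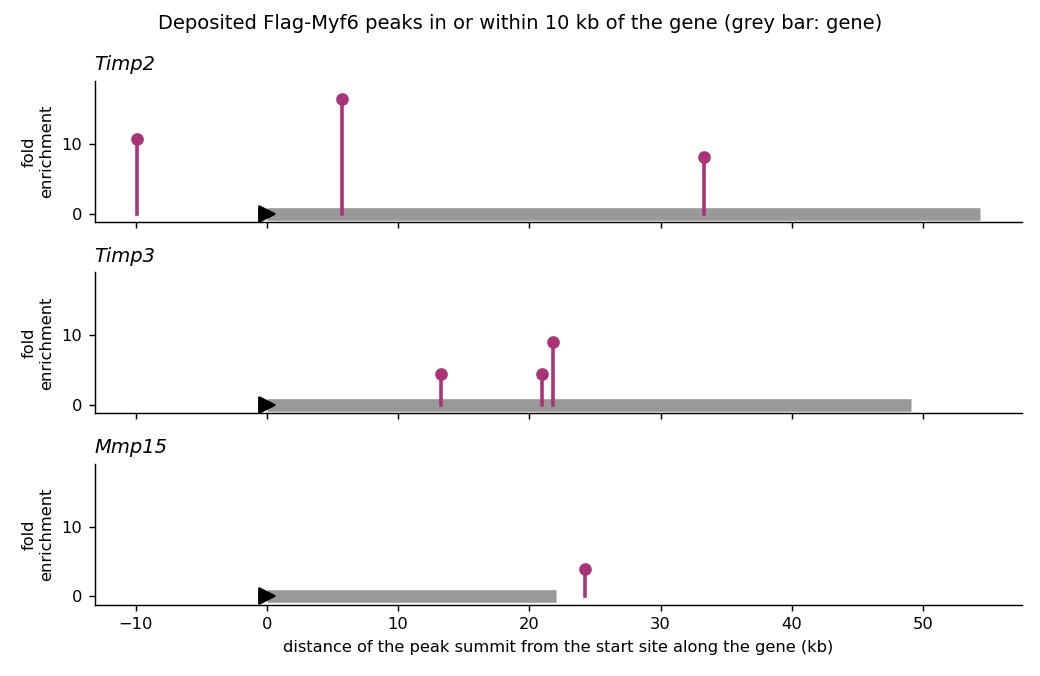
Deposited Flag-Myf6 peaks at Timp2, Timp3 and Mmp15, each a stem whose height is the authors' fold enrichment, by distance of the summit from the start site in kb along the gene (grey bar). The tallest stem is 16.4 in Timp2, 5.742 kb past the start site, and no stem stands at a start site.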

How the data were processed

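RNA was extracted with Trizol and libraries were made with the TruSeq RNA v2 kit, per the labels' protocols. HISAT2 2.1.0, Bowtie 1.1.0, SAMtools, featureCounts and DESeq2, and the builds mm10 and GRCm38.p5, stand in the submitters' processing notes, without a stated role. Strand use and the treatment of shared reads are not given in the sources used here. The authors deposited 1 table for uninjured and 1 for injured libraries, with RPM per gene and library, and for each gene their own log2 fold change with standard error, p-value and q-value. The sign of the log2 fold change in the deposited tables is WT over KO and was turned here. Peaks were called with MACS2 2.1.0.20140616 at a q cutoff of 0.05, per the file headers. The deposited peak list gives the signal height, the fold enrichment and for p-value and q-value the −log10, per peak.

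Each library's RPM summed to 1000000. Whole reads were recovered from the RPM steps: 100% of values tested were whole within 0.1 read. Tests were run with limma 3.58.1 (R 4.3.3, eBayes with trend) on log2(RPM + 1), keeping genes that reached 1 RPM in 3 or more of the fitted libraries, two-sided, with Benjamini-Hochberg adjustment over all genes. Changes on this scale understate those of low genes. KO against WT was fitted on its own 6 libraries, and injury and interaction on all 12, which sets levels side by side across separately scaled tables. As alternatives edgeR 4.0.16 and DESeq2 1.42.0 took the recovered reads. Other alternatives were TMM scaling, a pseudocount of 0.1, other filters, a replicate block and leaving out each library. Uninjured and injured libraries of a genotype with the same number were read as 1 animal. Their deviations from the group means correlated at 0.28, -0.23 and 0.02 in WT and 0.02, 0.50 and 0.63 in KO, and a block by animal changed no call. Each member was also tested, in every comparison but the interaction, by an exact permutation test of the difference of mean log2(RPM + 1). Floors cover counting error only.

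The 8 members and all lists were chosen with earlier results of these data known. Named from each of 4 role lists were the genes called, or else the 2 with the smallest unadjusted p in each comparison. The chi-square per gene was at least 14.3 for every pair of libraries within a group, so none of these pairs was counted as a duplicate. Pairs of libraries from different groups were not compared in this way. Gene positions and promoters were those of GRCm38.p6, whose chromosomes share coordinates with the builds named in the notes, while the peak list names no build.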

Additional observations from a re-analysis of the deposited data

How the results depend on the processing

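No member was called under any of the 559 alternative values computed (3 of them with no test) for the 40 member results, and 67 of these had the opposite sign. Counts of genes called moved more. KO against WT in uninjured muscle gave 35 genes, and 55 with edgeR, 663 with DESeq2, 110 with TMM scaling, 20 with a pseudocount of 0.1, 1 with no filter, 7 with 1 RPM asked of every library, 331 by the authors' deposited q-values, and 3 to 84 with a library left out (84 without KO replicate 3, 3 without KO replicate 1, 5 without WT replicate 1 or 3, 10 without WT replicate 2). In injured muscle it gave 34 genes (22 higher and 12 lower), and 427 with DESeq2 (210 higher and 217 lower), 19 with no filter, 4 with 1 RPM in every library, 225 by the authors' deposited q-values, and 0 to 2343 with a library left out. The 2343 came without KO replicate 2, and 0 without any other library. Injury in KO gave 0 genes, and 0 to 1 with a library left out (1 without uninjured KO replicate 3).

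WT and KO libraries share replicate numbers but not animal numbers. Deviations from the group means at the same number correlated at 0.037, 0.26 and 0.37 in uninjured and at -0.45, -0.60 and -0.30 in injured muscle, so the numbers were not taken as pairs between genotypes. With a replicate block the counts were 752 (181 higher) and 0, with no member called. For injury and the interaction the block by animal gave 0 calls in all 3 comparisons, with 319, 889 and 280 genes at an unadjusted p under 0.05.

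TMM scaling moved the median of all genes from -0.18 to -0.02 in uninjured KO against WT, from 0.29 to 0.05 for injury in KO, and from 0.20 to 0.02 in the interaction. Values whose sign turned are given next, and the cause was not tested. KO against WT in uninjured muscle put Mmp9 at 0.0018 (DESeq2), Timp2 at 0.0627 (TMM), 0.0645 (edgeR) and 0.0699 (DESeq2), Timp3 at 0.12 (TMM), 0.13 (edgeR) and 0.13 (DESeq2). Injury in WT put Mmp15 at -0.0016 (TMM), -0.0022 (edgeR) and -0.0174 (DESeq2), Timp2 at -0.0117 (TMM), -0.0132 (edgeR) and -0.0367 (DESeq2). Injury in KO put Mmp9 at 0.25 (pseudocount of 0.1), Mmp15 at -0.18 (TMM), -0.19 (edgeR) and -0.20 (DESeq2), Timp2 at -0.19 (TMM), -0.19 (edgeR) and -0.20 (DESeq2), Timp3 at -0.0912 (TMM), -0.0679 (edgeR) and -0.0783 (DESeq2), Timp4 at -0.0784 (TMM). The interaction put Mmp9 at 0.30 (pseudocount of 0.1), Mmp15 at -0.18 (TMM), -0.19 (edgeR) and -0.19 (DESeq2), Timp2 at -0.18 (TMM), -0.18 (edgeR) and -0.17 (DESeq2), Timp3 at -0.0041 (TMM). With 1 RPM asked of every library Mmp9 could be fitted in the injured comparison only and Timp1 in none, and Timp1 in injured muscle failed the filter without WT replicate 1, KO replicate 2 or KO replicate 3. The differences of means without a filter, added after the data were seen and with no test, were 0.82, 0.07 and 0.48. With a library left out, the log2 changes of results whose sign turned ranged as follows. KO against WT in uninjured muscle gave Mmp9 from -1.33 to 0.44, Timp3 from -0.27 to 0.13 and Timp4 from -0.0692 to 0.33. KO against WT in injured muscle gave Timp3 from -0.0789 to 0.29 and Timp4 from -0.0036 to 1.07. Injury in WT gave Mmp2 from -0.0055 to 0.38, Mmp9 from -0.47 to 0.23, Mmp15 from -0.0692 to 0.21, Timp2 from -0.0955 to 0.15, Timp3 from -0.21 to 0.19 and Timp4 from -0.46 to 0.0207. Injury in KO gave Mmp9 from -1.21 to 0.56, Mmp15 from -0.0153 to 0.18, Timp1 from -0.0873 to 0.63, Timp2 from -0.0014 to 0.21, Timp3 from -0.0228 to 0.35 and Timp4 from -0.33 to 0.74. The interaction gave Mmp2 from -0.0127 to 0.56, Mmp9 from -1.14 to 0.63, Mmp15 from -0.10 to 0.17, Timp2 from -0.0625 to 0.20, Timp3 from -0.0088 to 0.41 and Timp4 from -0.12 to 0.95.

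Mmp15 kept its sign in all 13 alternatives of each genotype comparison (0.37 to 0.69 in uninjured and 0.38 to 0.64 in injured muscle, with adjusted p from 0.23 to 0.76 and from 0.16 to 0.97). Mmp14 in uninjured muscle (-0.99 to -0.44, adjusted p from 0.19 to 0.83) and Mmp9 in injured muscle (-0.96 to -0.58, adjusted p from 0.11 to 0.96) did so too. The sign was also kept by Mmp2 and Timp1 in both states, and by Mmp14 and Timp2 in injured muscle. A kept sign thus does not set the first 3 genes apart. Depth limits most the genes at a few RPM or less, among them Mmp9, Timp1, Mmp17 and Adam8. In uninjured WT replicate 2, the smallest library, 3 reads were worth 1.60 RPM. Mmp14 rested there on 27 reads and Mmp15 on 39.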
